A study of Rattus norvegicus with 19 samples.

Results

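Gene expression in rat somatosensory cortex (Wistar strain, adult males) was compared between 24 h and the first hours after perfusion of the cortex with an agent in artificial cerebrospinal fluid. The comparison takes 6 of the 19 arrays of the series: the 3 arrays at 24 h after sodium deoxycholate (DOC, 2 mM), albumin (bovine serum albumin, 0.1 mM) or TGF-β1 (10 ng/ml), and the 3 arrays at 7 h after DOC and at 8 h after albumin or TGF-β1, called 7/8 h here. DOC is a bile salt used to open the blood-brain barrier, albumin is the main protein of serum, and TGF-β1 is a cytokine. Each agent and time has 1 array, so the 3 agents stand in for replicates of a time, and nothing in the labels says how many animals an array holds. A sham operation was sampled at 24 h only and did not enter the test; without a sham at 7/8 h, the operation and the agents cannot be told apart in any difference between the times. The hour of the day at which tissue was taken is not given in the sources used here. Values are log2 signals, given throughout in the order DOC, albumin, TGF-β1.

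The blood-brain barrier keeps serum proteins out of brain tissue, and albumin that leaks through is taken up by astrocytes, where TGF-β receptors take part in the response. Injured cortex is known for a fast wave of transcription factors, cytokines and stress hormone targets, followed by slower changes in astrocytes and microglia. Astrocytes supply neurons and buffer potassium and glutamate, and when they become reactive they build up intermediate filaments and secrete acute-phase proteins. Microglia are the resident phagocytes of the brain.

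The 31099 probe sets named 14217 genes, of which 10018 were tested. Array medians in set 1, the 10 arrays that hold these groups, lay between 5.09 and 5.17, and no array stood apart by its correlation with the others (median r 0.985 to 0.992). Across the 10018 genes tested, an agent's array at 24 h correlated with its own at 7/8 h at 0.963 for DOC, 0.977 for albumin and 0.983 for TGF-β1. The list of 29 neuron genes, a check of the tissue, averaged 10.86, 11.11 and 10.99 at 24 h, against 10.92, 11.11 and 11.11 at 7/8 h. Of the markers of neighbouring tissue, 1 of 13 choroid plexus genes and 8 of 15 striatum genes passed the filter on low values, and their levels are given here or where they touch a result. Ttr, the choroid plexus gene tested, had 3.35, 3.31 and 3.63 at 24 h, against 5.63, 3.59 and 3.61 at 7/8 h and 5.31 in the sham, so the DOC array at 7 h stood apart from the other treated arrays on this marker; its part in the results was not tested.

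By 24 h, genes of reactive astrocytes such as Hspb1, Gfap and Serpina3n and genes of phagocytes such as Lgals3 and Gpnmb had risen. The falls included the glucocorticoid targets Fkbp5 and Tsc22d3, the prostaglandin synthase Ptges and the astrocyte connexin Gjb6. In all, 80 of 10018 genes (0.799%) passed an adjusted p of 0.05 in limma, in a fit that also held the 3 arrays at 48 h, 50 higher at 24 h (0.499%) and 30 lower (0.299%). Of these, 42 were at least 2-fold higher and 26 at least 2-fold lower. Over all genes, 1.61% were at least 2-fold higher and 1.05% at least 2-fold lower. In 78 of the 80, the 3 arrays at 24 h did not overlap the 3 at 7/8 h, as in 10.3% (higher) and 7.98% (lower) of all genes; the exceptions were Zdhhc22 and Plin2. All 3 agents moved in the same direction in each of the 80. With 0.799% of all genes called, a gene list of the sizes used below can hold no call without differing from all genes. At an unadjusted p under 0.05 the counts were 813 higher (8.12%) and 602 lower (6.01%), and the median difference over all genes was 0.03. In bulk tissue, a change in the number of cells of a type and a change in RNA per cell cannot be told apart.

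**Figure D1:**
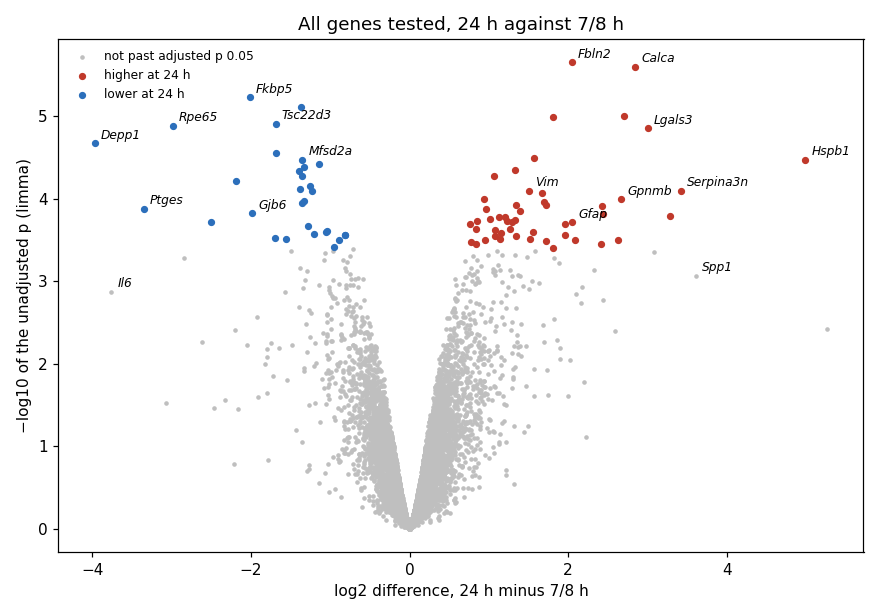
Each point is 1 of the 10018 genes tested, with the log2 difference of 24 h minus 7/8 h on the x axis and the −log10 of the unadjusted limma p on the y axis. Red points are the 50 genes that were higher at 24 h and blue points the 30 that were lower at an adjusted p of 0.05; Hspb1 lies farthest to the right of them and Depp1 farthest to the left.

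The number of calls rested on the whole set of arrays. With limma it was 1 without the DOC arrays, 2 without the albumin arrays and 0 without the TGF-β1 arrays, where 926 genes still had an unadjusted p under 0.05. Leaving out single arrays gave 6 calls without DOC at 24 h, 4 without albumin at 24 h and 2 without TGF-β1 at 24 h, and 2 without DOC at 7 h, 8 without albumin at 8 h and 1 without TGF-β1 at 8 h. With the 6 arrays alone the count was 0, the smallest adjusted p was 0.0564, and 1672 genes had an unadjusted p under 0.05. In each of these fits all 80 genes had the direction given here, with an unadjusted p under 0.05. The 80 were chosen for a small p on these same arrays, so this agreement is no independent evidence.

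Reactive astrocyte genes were the list with the most rises. Of 24 tested members, 8 rose, 0 fell and 16 did not pass, against 0.499% of all genes higher; the list median was 1.09, against 0.03 for all genes. The 8 were Hspb1, Serpina3n, Lgals3, S1pr3, Cd44, Gfap, Vim and Cnn3. By agent the list median was 1.25 with DOC, 0.89 with albumin and 1.04 with TGF-β1. Members of this list were chosen with earlier results of these data known, so its direction is no independent evidence.

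Hspb1, a small heat shock protein that stabilises filaments, had the largest rise of all genes that passed. It had 11.24, 11.18 and 11.02 at 24 h, against 4.40, 7.22 and 6.87 at 7/8 h and 6.18 in the sham at 24 h. The 24 h arrays were nearly equal, while the DOC array at 7 h was far below the other early arrays and below the sham. The rise was 4.99 ± 0.53 in log2 (adjusted p = 0.024; here and below ± is the SE, with 3 arrays at each time), a 31.7-fold difference. Of the other 19 tested genes of the heat shock list, none passed, where 0.799% of all genes did. The list median was 0.12. Hspa2, which is not on this list, did pass and is given below. Hspb8, a related small heat shock protein, had 1.28 ± 0.30 (adjusted p = 0.145), and Cryab, the lens crystallin that is also a glial chaperone, −0.71 ± 0.15 (adjusted p = 0.107).

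The intermediate filament genes Gfap and Vim, the classic markers of reactive astrocytes, rose with all 3 agents. Gfap had 13.49, 13.70 and 13.60 at 24 h, against 10.54, 12.28 and 11.83 at 7/8 h, a difference of 2.05 ± 0.29 (adjusted p = 0.0387). Vim had 10.99, 11.48 and 11.02 at 24 h, against 9.14, 9.96 and 9.87 at 7/8 h, a difference of 1.51 ± 0.18 (adjusted p = 0.0311). For Gfap the sham at 24 h (12.07) lay among the early arrays, between the TGF-β1 and albumin values; for Vim the sham (8.80) was below every treated array of both times. Among the members that did not pass, Timp1, an inhibitor of matrix proteases, had 10.09, 10.01 and 10.34 at 24 h, against 6.70, 10.66 and 8.75 at 7/8 h, so that the albumin array was already high at 8 h.

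Serpina3n, a protease inhibitor that reactive astrocytes secrete, had 6.42, 6.44 and 7.50 at 24 h, against 2.35, 4.51 and 3.24 at 7/8 h, a rise of 3.42 ± 0.42 (adjusted p = 0.0311), with an early mean of 3.37 below the filter, a log2 value of 4. Cd44, the hyaluronan receptor, had 7.88, 9.02 and 7.76 at 24 h, against 5.43, 7.18 and 4.80 at 7/8 h (2.42 ± 0.38, adjusted p = 0.0457). In both genes the albumin array was the highest of the early arrays. S1pr3, a receptor of the lipid sphingosine-1-phosphate, rose by 2.63 ± 0.40 (adjusted p = 0.0429), and Cnn3, an actin-binding calponin, by 0.93 ± 0.12 (adjusted p = 0.0348). Tnfrsf12a, which stands on no list and encodes the TWEAK receptor, had 8.56, 9.12 and 7.93 at 24 h, against 5.62, 7.02 and 5.63 at 7/8 h, a rise of 2.44 ± 0.33 (adjusted p = 0.0383).

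**Figure D2:**
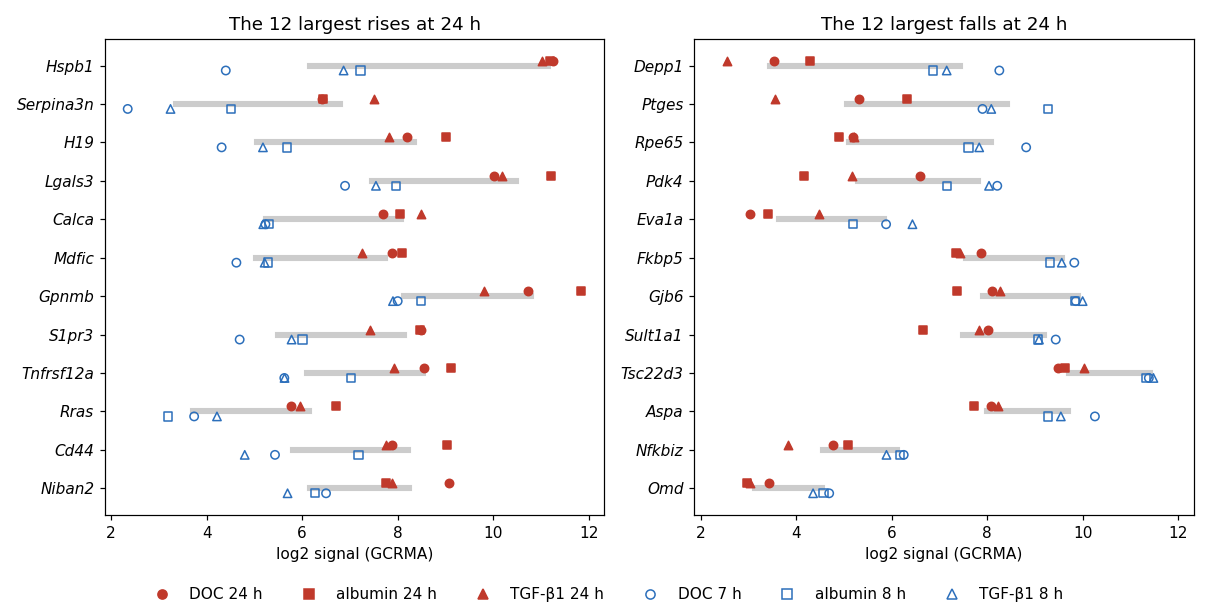
Log2 signal on each of the 6 arrays for the 12 largest rises (left) and the 12 largest falls (right) that passed and whose arrays did not overlap; filled red symbols are arrays at 24 h, open blue symbols arrays at 7 h (DOC) or 8 h, and each grey bar joins the means of the times. Hspb1 shows a narrow group at 24 h against a wide one at 7/8 h, and Depp1 the largest gap among the falls.

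Serpina3n and Tnfrsf12a rose together, and the RefSeq windows at their starts (GRCr8, 250 bases before to 50 after) both hold the pattern bound by STAT factors, TTCNNNGAA, in capitals below. Serpina3n lies at chr6:129088142-129088441 on the plus strand, with the match beginning 123 bases before the gene's start, and Tnfrsf12a at chr10:13213599-13213898 on the minus strand, with the match 136 bases before it.
Serpina3n: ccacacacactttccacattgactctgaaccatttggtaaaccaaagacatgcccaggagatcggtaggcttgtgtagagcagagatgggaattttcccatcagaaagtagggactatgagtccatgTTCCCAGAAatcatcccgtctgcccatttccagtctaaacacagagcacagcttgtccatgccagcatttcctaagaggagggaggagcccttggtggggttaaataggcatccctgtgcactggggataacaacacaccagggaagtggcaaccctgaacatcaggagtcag
Tnfrsf12a: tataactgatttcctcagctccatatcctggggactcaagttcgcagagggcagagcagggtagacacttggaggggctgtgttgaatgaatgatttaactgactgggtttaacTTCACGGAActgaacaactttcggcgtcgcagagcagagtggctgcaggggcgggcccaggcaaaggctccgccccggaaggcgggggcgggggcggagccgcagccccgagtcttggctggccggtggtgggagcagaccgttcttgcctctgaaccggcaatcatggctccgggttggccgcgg

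The STAT pattern reads the same on both strands. It was found in 3 of the 40 matched windows of genes that rose (7.5%; Rras, a small GTPase, was the other), in 1 of 27 of genes that fell (3.7%) and in 8.68% of 27457 windows in all, so its share among the rises was no higher than in all genes. In all, 8 patterns were searched on both strands. The heat shock element (GAA, TTC and GAA, each 2 bases apart) was in 0 of the 40 windows of rises and in 0.736% of all windows, and the AP-1 site TGANTCA in 1 of 40 (2.5%, Gpnmb) and 7.33%. The cAMP response element TGACGTCA was in 2 of the 27 windows of falls (7.41%, Slc25a33 and Plekhf1) and in 1.91% of all windows. The E-box CACGTG was in 4 of 40 (10%) and 3 of 27 (11.1%), against 6.65% of all windows, and the TATA box TATAAA in 3 of 40 (7.5%) and 5 of 27 (18.5%), against 14.3%. Stat3, the factor that carries IL-6 signals, had 9.72, 9.73 and 9.04 at 24 h, against 8.70, 8.92 and 8.54 at 7/8 h (0.78 ± 0.13, adjusted p = 0.066). None of the 10 tested genes of the IL-6 family and STAT3 list passed, and their median was 0.20. A2m, an acute-phase protease inhibitor, had 1.37 ± 0.25 (adjusted p = 0.0695).

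Few microglia and macrophage genes passed, and those that did were higher at 24 h. Of 24 tested genes of activated microglia and macrophages, 2 rose, 0 fell and 22 did not pass; the median was 0.51, and 12 were higher and 0 lower at an unadjusted p under 0.05, against 0.499% of all genes that rose and 8.12% higher at the unadjusted p. Lgals3, a galectin made by phagocytes and also by reactive astrocytes, had 10.01, 11.21 and 10.19 at 24 h, against 6.90, 7.97 and 7.54 at 7/8 h (3.00 ± 0.28, adjusted p = 0.0155). Gpnmb, a transmembrane glycoprotein of phagocytes, had 10.73, 11.85 and 9.81 at 24 h, against 8.00, 8.49 and 7.90 at 7/8 h (2.67 ± 0.34, adjusted p = 0.0348). The albumin array was the highest at 24 h for both. Spp1, the secreted phosphoprotein osteopontin, had 9.22, 11.24 and 9.61 at 24 h, against 6.31, 7.04 and 5.88 at 7/8 h; its difference of 3.61 ± 0.65 did not pass (adjusted p = 0.0695). Ctsz, a lysosomal protease, had 1.58 ± 0.25 (adjusted p = 0.0511) and Cybb, the catalytic subunit of the phagocyte oxidase, 1.39 ± 0.25 (adjusted p = 0.0695).

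Of 14 tested genes of resting microglia, 2 rose and 12 did not pass, against 0.499% of all genes higher. Their median was 0.17. Aif1, the actin-binding protein known as Iba1, had 7.14, 7.17 and 7.55 at 24 h, against 5.0, 6.26 and 5.93 at 7/8 h (1.55 ± 0.23, adjusted p = 0.0429). Its sham at 24 h (6.32) lay above every array of 7/8 h and below those of 24 h. Tyrobp, a signalling adaptor of microglial receptors, had 6.71, 7.07 and 7.01 at 24 h, against 5.36, 6.07 and 5.98 at 7/8 h (1.13 ± 0.15, adjusted p = 0.0387). P2ry12, a nucleotide receptor of resting microglia, had 7.83, 6.02 and 8.09 at 24 h, against 7.58, 7.21 and 8.21 at 7/8 h, and did not pass (−0.35 ± 0.35, adjusted p = 0.691). The list median was −0.03 without the DOC arrays and −0.07 without the DOC array at 24 h, and it was 0.43 without the albumin arrays and 0.47 without the albumin array at 24 h.

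Itgb2, the shared chain of leukocyte integrins, rose by 1.21 ± 0.17 (adjusted p = 0.0387), with 5.69, 5.79 and 5.87 at 24 h, against 4.29, 4.55 and 4.88 at 7/8 h. It is the single called gene of the 4 of 22 neutrophil and lymphocyte markers that passed the filter, against 0.799% of all genes called. The other 3 did not pass the test. S100a8, a calcium-binding protein of neutrophils, had 3.63, 5.64 and 3.46 at 24 h, against 4.10, 8.75 and 6.87 at 7/8 h (−2.33 ± 0.84, adjusted p = 0.282). Its partner S100a9 had 6.08, 8.13 and 6.46 at 24 h, against 7.12, 11.02 and 9.04 at 7/8 h (−2.17 ± 0.84, adjusted p = 0.311), and Mmp9, a matrix protease that neutrophils store, had 2.20 ± 0.70 (adjusted p = 0.246). Both S100 genes were highest on the albumin array at 8 h. The part of blood leukocytes in the rises of Itgb2, Aif1 and Tyrobp was not tested.

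Of 10 tested complement genes, 1 rose and 9 did not pass, against 0.499% of all genes higher. Their median was 0.71. The median was 0.44 without the DOC arrays and 0.45 without the DOC array at 24 h. Serping1, the inhibitor of the first complement proteases, had 7.60, 7.76 and 8.00 at 24 h, against 5.12, 6.58 and 5.78 at 7/8 h (1.96 ± 0.28, adjusted p = 0.039). C1qc, a chain of the recognition protein that microglia make, had 1.16 ± 0.19 (adjusted p = 0.0535), while C3, the central component, had 3.06, 2.94 and 3.12 at 24 h, against 4.15, 3.89 and 3.56 at 7/8 h (−0.83 ± 0.17, adjusted p = 0.095), all near or below the filter value.

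Calca, which encodes calcitonin and the vasodilator peptide CGRP, rose with all 3 agents. It had 7.69, 8.06 and 8.49 at 24 h, against 5.23, 5.30 and 5.18 at 7/8 h and 4.39 in the sham, a difference of 2.84 ± 0.21 (adjusted p = 0.0126). Another probe set of Calca had a smaller difference, 1.06 (unadjusted p = 0.037 in limma). H19, an imprinted non-coding RNA, had 8.20, 9.01 and 7.81 at 24 h, against 4.31, 5.68 and 5.18 at 7/8 h (3.29 ± 0.45, adjusted p = 0.0387). Mdfic, a regulator of transcription, rose by 2.70 ± 0.24 (adjusted p = 0.0155), Rras by 2.43 ± 0.32 (adjusted p = 0.0354) and Niban2 by 2.09 ± 0.32 (adjusted p = 0.0429). For Rras the sham at 24 h (5.34) was near the treated arrays of 24 h (5.77, 6.70 and 5.96), and the arrays at 7/8 h were lower (3.74, 3.19 and 4.21). The early mean of Rras, 3.71, lay below the filter value of 4, where background limits the signal.

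Several further rises were named after their values were seen, because they share a role with others that passed. Fbln2, a fibulin of the extracellular matrix, had 7.94, 7.62 and 8.03 at 24 h, against 5.69, 5.95 and 5.81 at 7/8 h, and had the smallest p of all genes (2.05 ± 0.15, adjusted p = 0.0126). Col6a3, a chain of collagen VI (1.56 ± 0.17, adjusted p = 0.024; early mean 3.14, below the filter value), and Lama4, a laminin chain of vessel walls (1.08 ± 0.16, adjusted p = 0.0429), also rose. None of the 34 tested genes of the matrix and protease list passed; their median was 0.16, or −0.08 without DOC at 24 h and 0.02 without the DOC arrays. Chi3l1, a chitinase-like protein secreted by astrocytes and macrophages, rose by 1.70 ± 0.22 (adjusted p = 0.0348). For Lama4 and Chi3l1 the sham at 24 h (6.38 and 9.55) was above every treated array of 7/8 h and below those of 24 h.

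The genes of this paragraph were also chosen after their values were seen. Gfra1 and Ret, the binding and the signalling parts of the receptor for the neurotrophic factor GDNF, both rose. Gfra1 had 7.00, 6.76 and 6.73 at 24 h, against 5.01, 5.10 and 5.22 at 7/8 h (1.72 ± 0.22, adjusted p = 0.0348). Ret had 8.60, 8.63 and 7.61 at 24 h, against 6.87, 6.72 and 6.70 at 7/8 h (1.52 ± 0.23, adjusted p = 0.0429). The early arrays were close together for both genes. Plin2, a coat protein of lipid droplets, had 8.12, 7.83 and 5.80 at 24 h, against 6.06, 6.05 and 3.77 at 7/8 h (1.96 ± 0.29, adjusted p = 0.0429), so that the TGF-β1 arrays were lower at both times. Pnoc, the precursor of the peptide nociceptin, rose by 1.22 ± 0.17 (adjusted p = 0.0387), and Hspa2, a member of the HSP70 family, by 1.27 ± 0.18 (adjusted p = 0.0423). Other probe sets of Plin2 and Hspa2 had smaller differences, 0.88 and 0.66 (unadjusted p = 0.0894 and 0.128 in limma).

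Igfbp2, a binding protein of insulin-like growth factors that stands on the meninges list, rose by 1.67 ± 0.21 (adjusted p = 0.0316), with 8.32, 10.18 and 9.51 at 24 h, against 6.97, 8.08 and 7.96 at 7/8 h. The other 13 tested meningeal genes did not pass, where 0.799% of all genes did. The list median was −0.48, or −1.54 with albumin alone. Without the albumin arrays this median was −0.12, without albumin at 24 h −0.08, without albumin at 8 h −0.28 and without DOC at 24 h −0.77. The mean level of the 14 genes was 5.39, 5.55 and 6.52 at 24 h, against 5.45, 6.78 and 6.32 at 7/8 h. Ptgds, the prostaglandin D synthase of the meninges, had 10.40, 10.59 and 11.98 at 24 h, against 11.35, 12.85 and 12.33 at 7/8 h (−1.18 ± 0.34, adjusted p = 0.2). The part of meningeal tissue in the matrix results was not tested.

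Among the falls, targets of glucocorticoids, the adrenal steroid hormones released in stress, formed the largest group from 1 list. Of 25 tested members, 0 rose, 5 fell and 20 did not pass, against 0.299% of all genes lower. The 5 were Fkbp5, Tsc22d3, Pdk4, Sult1a1 and Plekhf1. The list was drawn up with earlier results of these arrays known, so its direction is no independent evidence. Its median was −0.41, with 0.15 for DOC, −0.65 for albumin and −0.60 for TGF-β1; the median was −0.24 without the albumin array at 24 h, −0.73 without the DOC arrays and −0.74 without the DOC array at 24 h.

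Fkbp5, a co-chaperone that restrains the glucocorticoid receptor, had 7.88, 7.35 and 7.44 at 24 h, against 9.83, 9.32 and 9.56 at 7/8 h. The fall was −2.01 ± 0.17 (adjusted p = 0.0155), and the sham at 24 h had 7.00. Tsc22d3, a leucine zipper protein known as GILZ, had 9.48, 9.64 and 10.03 at 24 h, against 11.39, 11.33 and 11.48 at 7/8 h (−1.69 ± 0.16, adjusted p = 0.0155; sham 10.22). In both genes the sham at 24 h lay with or near the treated arrays of 24 h and well below those of 7/8 h. Pdk4, a kinase that shuts pyruvate out of the citric acid cycle, had 6.59, 4.17 and 5.16 at 24 h, against 8.21, 7.16 and 8.04 at 7/8 h (−2.50 ± 0.35, adjusted p = 0.0387; sham 5.19). Sult1a1, a sulfotransferase of phenols, had 8.01, 6.66 and 7.82 at 24 h, against 9.44, 9.07 and 9.09 at 7/8 h (−1.70 ± 0.26, adjusted p = 0.0429). Its sham had 8.94, above every treated array of 24 h and close to those of 7/8 h. Plekhf1, a protein of endosomes and lysosomes, had −1.33 ± 0.17 (adjusted p = 0.0348; sham 5.37, against treated arrays of 5.59 to 5.90 at 24 h).

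Sgk1, a kinase that glucocorticoids induce, had differences of 0.27 with DOC, −1.58 with albumin and −1.27 with TGF-β1 and did not pass. The full glucocorticoid response element (AGAACA, 3 free bases, TGTNCT), searched on both strands, was in 0 of the 27 matched windows of genes that fell and in 0.0255% of all windows; its first part, AGAACA, was in 3 of 27 (11.1%) and in 20.1% of all windows. These windows cover only the bases next to the start.

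**Figure D3:**
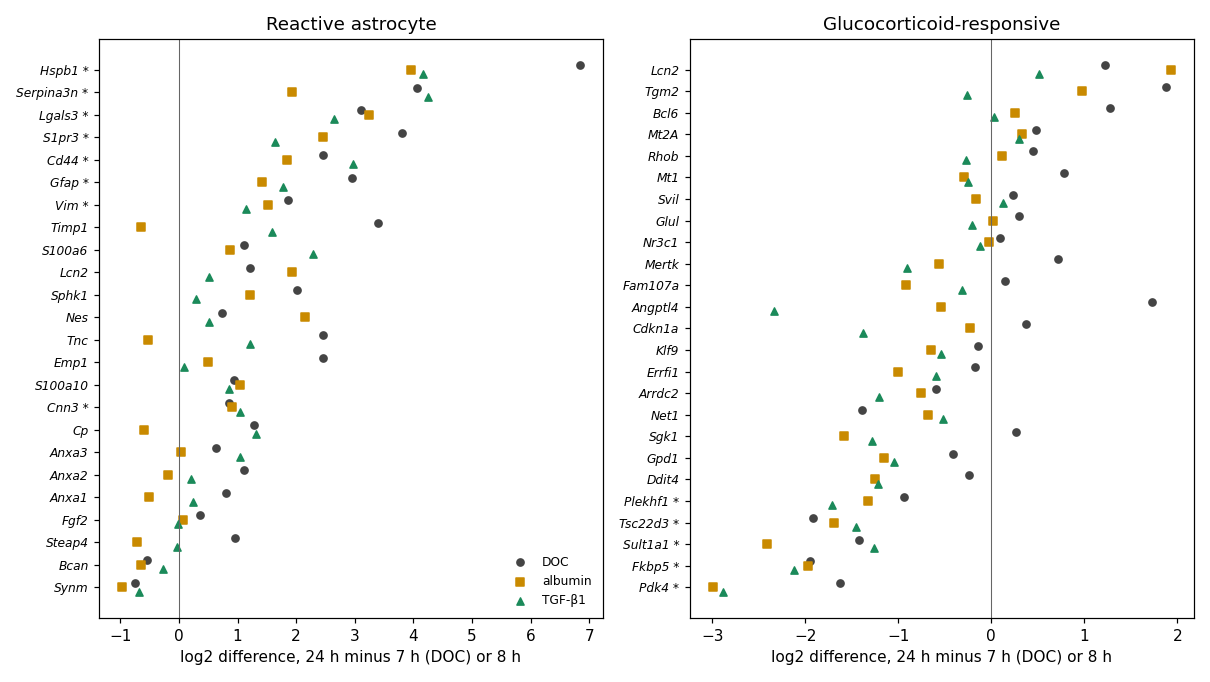
Log2 difference of 24 h minus the early time for each tested member of the reactive astrocyte list (left, 24 genes) and the glucocorticoid-responsive list (right, 25 genes), with 1 point per agent; an asterisk marks the genes that passed. In the genes that passed the 3 agents lie on 1 side of 0, while Timp1 on the left and Sgk1 on the right are split between the agents.

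The largest log2 difference among the falls was that of Depp1, a gene that FOXO factors induce in fasting. It had 3.54, 4.29 and 2.55 at 24 h, against 8.26, 6.86 and 7.15 at 7/8 h and 3.92 in the sham, a difference of −3.96 ± 0.40 (adjusted p = 0.0212). Its 24 h mean of 3.46 lay below the filter value of 4, where background limits the signal, so no fold is given. Ptges, the inducible synthase of prostaglandin E, had 5.32, 6.33 and 3.56 at 24 h, against 7.90, 9.27 and 8.09 at 7/8 h and 3.35 in the sham (−3.35 ± 0.44, adjusted p = 0.0357). For both genes the sham lay within or below the range of the treated arrays at 24 h. Rpe65, an isomerase of retinoids known from the eye, had 5.19, 4.90 and 5.22 at 24 h, against 8.82, 7.61 and 7.84 at 7/8 h and 4.88 in the sham (−2.99 ± 0.28, adjusted p = 0.0155). Eva1a, which takes part in autophagy, had −2.19 ± 0.26 (adjusted p = 0.0287) and Omd, a keratan sulfate proteoglycan known from bone, −1.39 ± 0.16 (adjusted p = 0.0258), with 24 h means of 3.65 and 3.15 that lay below the filter value of 4.

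Cytokine genes had large differences of which none passed. All 19 tested members of the list failed the adjusted test, with a median of −0.46; the list has 33 genes, and 14 did not pass the filter on low values. Il6, a cytokine that drives acute-phase responses, had 2.43, 2.41 and 2.37 at 24 h, against 3.99, 7.95 and 6.55 at 7/8 h (−3.76 ± 0.73, adjusted p = 0.0816). Tnf, a cytokine of activated microglia, had 2.49, 3.08 and 2.46 at 24 h, against 6.47, 4.19 and 3.99 at 7/8 h (−2.20 ± 0.52, adjusted p = 0.144). The highest early array was albumin for Il6 and DOC for Tnf, and both genes were below the filter value on every array at 24 h. Both had 2 arrays at 7/8 h above the filter value, which was enough to be tested. Such genes enter the list through the time at which they are high, so their falls are no independent evidence. The filter takes arrays of any time, so it lets in genes high only at 24 h as well. The list's median was −0.05 with a mean log2 above 5 as the filter and −0.21 with no filter. The chemokine Cxcl1, which attracts neutrophils, had 2.81, 5.44 and 2.62 at 24 h, against 5.94, 6.85 and 5.94 at 7/8 h (−2.62 ± 0.66, adjusted p = 0.165).

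Other cytokines did not follow this course. Ccl2, which attracts monocytes, had 10.72, 10.13 and 8.02 at 24 h, against 8.60, 9.73 and 8.46 at 7/8 h (0.69 ± 0.44, adjusted p = 0.512). Il1b, a cytokine released by activated phagocytes, had 3.65, 6.09 and 3.67 at 24 h, against 7.19, 5.69 and 3.72 at 7/8 h (−1.06 ± 0.77, adjusted p = 0.572). Without the DOC arrays these differences were −0.017 and 0.18. The cytokine list median was −0.09 without the DOC arrays, −0.12 without the albumin arrays and −0.68 without the TGF-β1 arrays. It was −0.15 without DOC at 7 h, −0.25 without DOC at 24 h, −0.19 without albumin at 8 h and −0.78 without TGF-β1 at 8 h.

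Of 17 tested genes of NF-kappaB and innate signalling, 0 rose, 1 fell and 16 did not pass. Of all genes, 0.499% were higher and 0.299% lower. The list median was 0.14. The fall was in Nfkbiz, an inducible nuclear partner of NF-kappaB, with 4.77, 5.08 and 3.82 at 24 h, against 6.25, 6.18 and 5.89 at 7/8 h (−1.55 ± 0.24, adjusted p = 0.0429). Nfkbia, the inhibitor that NF-kappaB itself induces, had −1.31 ± 0.24 (adjusted p = 0.0724).

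Of 20 tested genes of astrocyte homeostasis, 0 rose, 1 fell and 19 did not pass. Of all genes, 0.499% were higher and 0.299% lower. The list median was −0.24. Gjb6, which forms gap junctions between astrocytes, had 8.11, 7.37 and 8.27 at 24 h, against 9.86, 9.85 and 10.00 at 7/8 h and 8.89 in the sham (−1.99 ± 0.27, adjusted p = 0.0383). The arrays at 24 h lay below the sham and below the early arrays, which were close together. Gjb2, its partner connexin, had −1.82 ± 0.52 (adjusted p = 0.2), and Cldn10, a claudin of astrocytes, −1.38 ± 0.24 (adjusted p = 0.0658). Slc1a2, the main glutamate transporter, had −0.75 ± 0.24 (adjusted p = 0.244), and Aqp4, the water channel of astrocyte endfeet, −0.12 ± 0.14 (adjusted p = 0.747).

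At the barrier, Mfsd2a, the endothelial transporter of omega fatty acids, fell. It had 5.33, 5.69 and 6.07 at 24 h, against 6.92, 6.92 and 7.31 at 7/8 h (−1.35 ± 0.14, adjusted p = 0.024). The sham at 24 h (5.725) lay among the treated arrays of 24 h. Mfsd2a was the single call among 25 tested genes of endothelium, barrier and angiogenesis, against 0.799% of all genes called. The list median was 0.22. Without the DOC arrays this median was 0.05, without the TGF-β1 arrays 0.37, without DOC at 7 h 0.14, without DOC at 24 h 0.10 and without TGF-β1 at 24 h 0.35. Abcg2, an efflux pump of brain vessels, had 4.31, 4.30 and 4.50 at 24 h, against 6.32, 5.15 and 6.12 at 7/8 h (−1.49 ± 0.24, adjusted p = 0.0511). Vwf, which endothelium releases when injured, had 1.22 ± 0.26 (adjusted p = 0.107).

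Aspa, the enzyme with which oligodendrocytes break down N-acetylaspartate, fell by 1.69 ± 0.18 on the log2 scale (adjusted p = 0.024), with 8.07, 7.72 and 8.23 at 24 h, against 10.26, 9.27 and 9.54 at 7/8 h. The sham at 24 h (7.94) lay among the treated arrays of 24 h. Aspa was the single call among 18 tested genes of oligodendrocytes and their precursors, against 0.799% of all genes called. The list median was −0.14. Falls outside the lists, named after their values were seen, included Dio2, the deiodinase that activates thyroid hormone in astrocytes (−1.25 ± 0.15, adjusted p = 0.0311; 24 h mean 3.10, below the filter value), and Rgs16, a brake on G protein signals (−1.38 ± 0.17, adjusted p = 0.0311). Slc25a33, a mitochondrial carrier of pyrimidine nucleotides (−1.37 ± 0.12, adjusted p = 0.0155), Mrpl41, a protein of the mitochondrial ribosome (−1.15 ± 0.13, adjusted p = 0.0255), and Pex11a, which divides peroxisomes (−1.32 ± 0.15, adjusted p = 0.0256), were also among them. Mrpl41 had 11.24, 11.09 and 11.19 at 24 h, against 12.38, 12.24 and 12.34 at 7/8 h, so each agent showed nearly the same step. Its sham at 24 h had 11.15, among the treated arrays of 24 h.

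**Figure D4:**
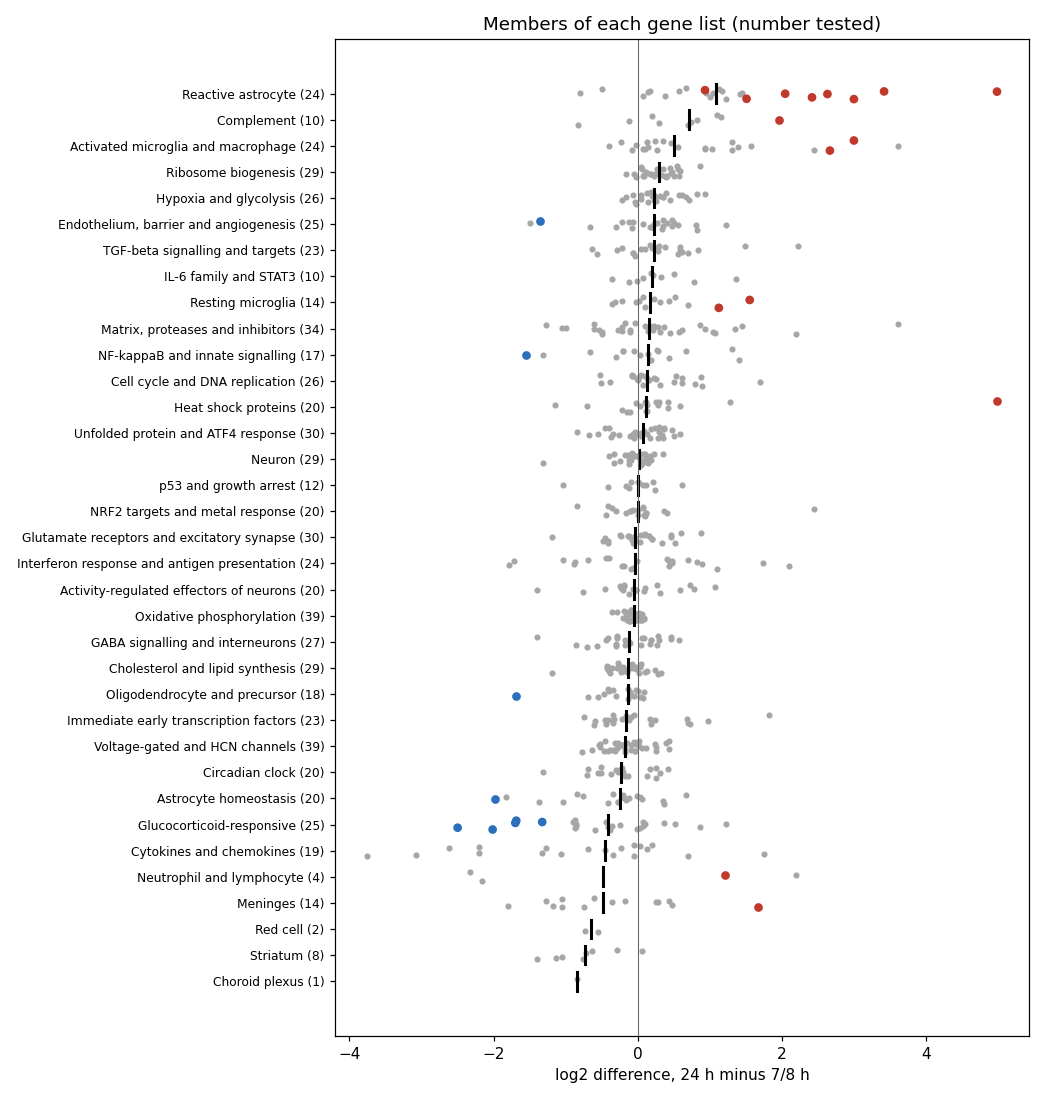
Log2 difference of 24 h minus 7/8 h for each tested member of the 35 gene lists, ordered by list median (black bars), with the number tested in parentheses; red and blue points passed higher and lower at 24 h, and grey points did not pass. The reactive astrocyte list has the highest median at 1.09 and 8 red points, and the glucocorticoid-responsive list has 5 blue points.

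Lists of neurons and their activity gave no call, where 0.799% of all genes were called. At that share, the lack of a call in lists of this size does not set them apart. The medians were 0.02 over 29 neuron genes, −0.03 over 30 genes of glutamate receptors and the excitatory synapse, −0.12 over 27 genes of GABA signalling and interneurons and −0.18 over 39 voltage-gated and HCN channels. Pvalb, the calcium buffer of fast-spiking interneurons, had 10.10, 10.14 and 10.50 at 24 h, against 10.51, 10.61 and 10.85 at 7/8 h (−0.41 ± 0.12, adjusted p = 0.201). Calb1, the calcium buffer calbindin, had −0.86 ± 0.21 (adjusted p = 0.15), and Scn1a, a sodium channel of interneurons, −0.47 ± 0.12 (adjusted p = 0.175). Tac1, the precursor of substance P, had −1.40 ± 0.29 (adjusted p = 0.107) and is also a striatal marker. The 8 tested striatum genes had a median of −0.74 and a mean level of 7.12, 7.07 and 7.09 at 24 h, against 7.13, 7.79 and 8.57 at 7/8 h, highest on the TGF-β1 array at 8 h; the part of striatal tissue in these differences was not tested.

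Of 23 tested immediate early transcription factors and 20 activity-regulated effectors, none passed, and the medians were −0.16 and −0.05. Both changed sign with single arrays: without TGF-β1 at 24 h they were 0.13 and 0.24, and the first was 0.12 without DOC at 7 h and −0.39 without albumin at 8 h, the second −0.31 without DOC at 24 h. Fos, the classic marker of recent activity, had 11.32, 11.01 and 9.24 at 24 h, against 11.30, 10.35 and 10.10 at 7/8 h (−0.06 ± 0.54, adjusted p = 0.977). Fosl1, an AP-1 subunit of slower time course, had 4.42, 5.06 and 3.67 at 24 h, against 2.27, 3.13 and 2.30 at 7/8 h (1.82 ± 0.30, adjusted p = 0.0555). Its early arrays all lay below the filter value of 4. Nr4a1, a nuclear receptor induced by activity, had −0.74 ± 0.31 (adjusted p = 0.35), and Vgf, a neuropeptide precursor, 1.08 ± 0.36 (adjusted p = 0.256).

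None of 20 tested clock genes passed, with a median of −0.23. At an unadjusted p under 0.05, 1 was higher and 5 were lower, against 8.12% and 6.01% of all genes. Per2, a repressor of the clock, had 8.63, 8.64 and 9.25 at 24 h, against 9.28, 9.56 and 9.75 at 7/8 h (−0.69 ± 0.23, adjusted p = 0.258). Dbp, a clock output factor, had 7.30, 8.81 and 9.28 at 24 h, against 8.71, 9.19 and 9.61 at 7/8 h (−0.71 ± 0.27, adjusted p = 0.314). Clock, the activator, had 0.42 ± 0.14 (adjusted p = 0.257). The median was −0.07 without the DOC arrays, −0.13 without DOC at 7 h, −0.14 without DOC at 24 h and −0.34 without the albumin arrays.

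Ribosome biogenesis genes had small differences of nearly 1 sign. None of 29 tested members passed, but 26 were above 0, against 54.7% of all genes, and the median was 0.30. At an unadjusted p under 0.05, 11 were higher and 0 lower, against 8.12% and 6.01% of all genes. Fbl, the methyltransferase fibrillarin of the nucleolus, had 10.31, 9.95 and 9.57 at 24 h, against 9.06, 9.11 and 9.09 at 7/8 h (0.86 ± 0.16, adjusted p = 0.0724). Nop2, another nucleolar methyltransferase, had 0.58 ± 0.14 (adjusted p = 0.15). Of 26 tested genes of hypoxia and glycolysis, none passed, and the median was 0.23. In this list 7 were higher and 0 lower at an unadjusted p under 0.05, against the same shares of all genes. Slc16a1, a lactate transporter, had 0.66 ± 0.18 (adjusted p = 0.177).

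None of 20 tested NRF2 targets and metal response genes passed, and their median was 0.00. Hmox1, the heme oxygenase, had 9.96, 10.29 and 8.29 at 24 h, against 7.52, 7.42 and 6.27 at 7/8 h and 3.58 in the sham (2.44 ± 0.50, adjusted p = 0.0953). Its arrays of the times did not overlap, which also held, with 24 h higher, for 10.3% of all genes. Hbb, the beta chain of haemoglobin and a marker of blood in the tissue, had 12.99, 12.49 and 12.54 at 24 h, against 13.43, 13.68 and 13.12 at 7/8 h (−0.74 ± 0.24, adjusted p = 0.247). The part of blood in these results was not tested.

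Of 26 tested genes of the cell cycle and DNA replication, none passed, with a median of 0.13. Mcm6, a part of the replicative helicase, had 4.37, 6.49 and 5.75 at 24 h, against 3.11, 4.52 and 3.89 at 7/8 h (1.70 ± 0.43, adjusted p = 0.165). None of the tested genes passed either in the lists of interferon response and antigen presentation (24, median −0.04), unfolded protein and ATF4 response (30, 0.07), p53 and growth arrest (12, 0.01), cholesterol and lipid synthesis (29, −0.14) or oxidative phosphorylation (39, −0.06). The interferon median was 0.72 without albumin at 8 h, 0.59 without the albumin arrays, 0.27 without albumin at 24 h and 0.06 without DOC at 24 h. Of the 35 list medians, 12 changed sign when an agent or an array was left out, and none of these 12 was over 0.25 in size.

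The size of the step differed between the agents, with 1 array each and hence no test. The median absolute difference over all genes was 0.293 with DOC, 0.197 with albumin and 0.167 with TGF-β1. With DOC, 512 genes were at least 2-fold higher and 289 at least 2-fold lower at 24 h, with albumin 205 and 187, and with TGF-β1 150 and 134. Over the 50 genes that rose, the median difference was 1.72 with DOC, 1.39 with albumin and 1.17 with TGF-β1, and over the 30 that fell it was −1.52, −1.34 and −1.28.

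Of 23 tested genes of TGF-β signalling and its targets, none passed; the median was 0.22, with 0.72 for DOC, 0.05 for albumin and 0.14 for TGF-β1. Without the DOC arrays the median was 0.09 and without the DOC array at 24 h 0.01, while it was 0.45 without the albumin arrays, 0.37 without albumin at 8 h and 0.43 without albumin at 24 h. Smad7, the inhibitory SMAD that the pathway induces, had 7.96, 7.17 and 7.10 at 24 h, against 6.12, 6.58 and 7.00 at 7/8 h (0.84 ± 0.31, adjusted p = 0.285). Tgfb1, the gene of the cytokine itself, had 4.96, 4.63 and 4.16 at 24 h, against 3.78, 3.96 and 4.17 at 7/8 h (0.61 ± 0.32, adjusted p = 0.435). In both genes the TGF-β1 arrays of the times were nearly equal.

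The next step, 48 h against 24 h in the same agents, shares the 24 h arrays, so the values are set side by side without a count of shared direction. From 24 to 48 h, 130 genes were higher (1.3%) and 11 lower (0.11%). Calca had 9.83, 10.09 and 9.65 at 48 h, a further rise of 1.78 ± 0.21 (adjusted p = 0.0124), and Vim had 12.30, 12.40 and 12.60, a further rise of 1.27 ± 0.18 (adjusted p = 0.029). Hspb1 had 9.97, 10.46 and 10.40 at 48 h (−0.87 against 24 h, adjusted p = 0.45), Gfap 13.44, 13.85 and 13.94 (0.15, adjusted p = 0.83) and Fkbp5 7.44, 7.63 and 7.40 (−0.07, adjusted p = 0.87).

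The difference between the first and the second step was itself tested, and 2 of 10018 genes passed (0.02%; 1373 at an unadjusted p under 0.05). Abcg2 had 7.52, 7.59 and 7.90 at 48 h and 7.39 in the sham at 24 h, so its level at 24 h was the lowest of the course; the step of −1.49 by 24 h was followed by one of 3.30 to 48 h (adjusted p of the difference 0.0411). Pttg1, a securin of dividing cells that was named after its values were seen, had a first step of 0.09 and a second of 3.78 (adjusted p of the difference 0.0411), with means of 2.34 at 24 h and 2.24 at 7/8 h below the filter value.

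**Figure D5:**
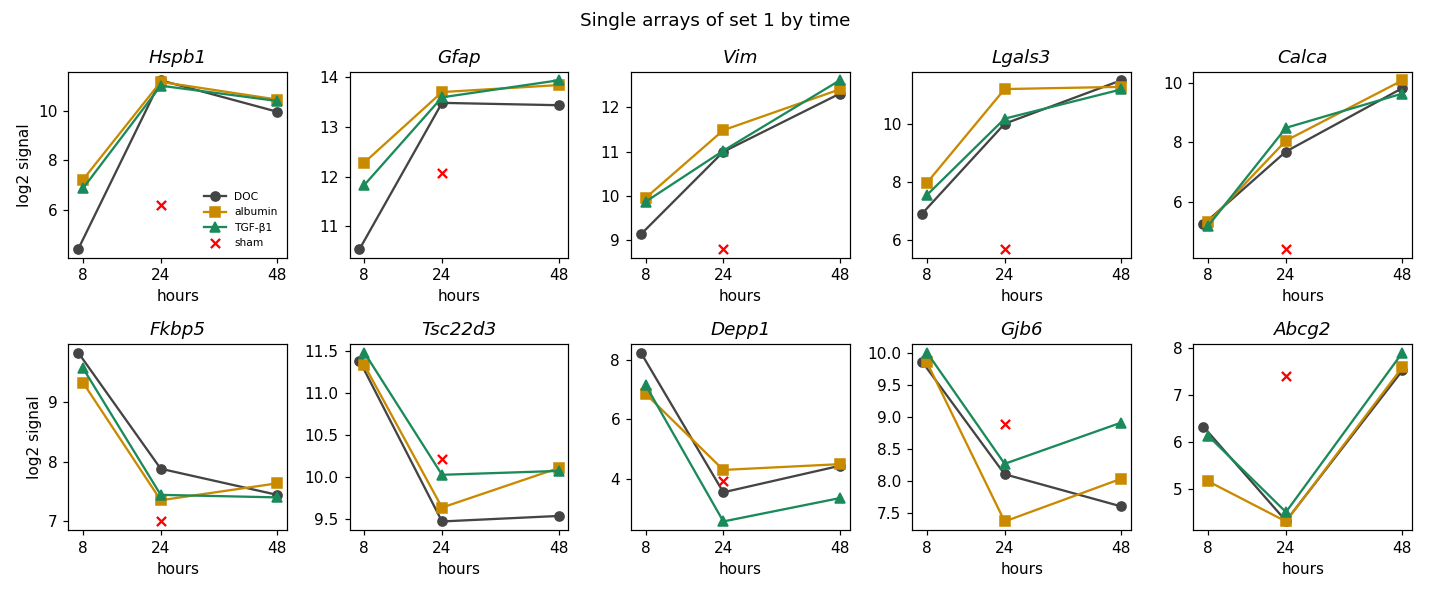
Log2 signal of 10 genes on the single set 1 arrays at 7 h (DOC) or 8 h, 24 h and 48 h, with 1 line per agent and a red cross for the sham at 24 h; each panel has its own y axis. Gfap, Vim, Lgals3 and Calca are higher at 24 h than at 7/8 h, Fkbp5, Tsc22d3, Depp1 and Gjb6 lower, and Abcg2 is lowest at 24 h with every agent.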

How the data were processed

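The labels give 1 array per agent and time in set 1, total RNA extracted with Trizol and biotin-labelled cRNA. Per the submitters' processing notes, the authors used GCRMA, which yields background-corrected, quantile-normalised log2 signals per probe set; its version is not given in the sources used here. Of 31099 probe sets, 20826 named 1 gene, 436 several and 9780 none, and 57 were controls. Symbols came from the GRCr8 gene table, through Entrez identifiers (20758 probe sets) or accessions (2), and 66 kept the platform's symbol. Where a gene had several probe sets (4525 genes), the one brightest on average across the 19 arrays was used. A gene was tested where the log2 value was above 4 on at least 2 set 1 arrays.

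The 9 treated set 1 arrays were fitted with additive terms for treatment and time in limma 3.58.1 in R 4.3.3 (lmFit, eBayes; 4 residual degrees of freedom), two-sided. Adjustment was by Benjamini-Hochberg over the 10018 genes, and the threshold was 0.05. The p-values therefore judge the mean difference between the times against how far the 3 agents depart from parallel courses. They do not measure the spread between animals. SE is the moderated standard error. The script was tested on simulated data. The number of arrays limits the precision.

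Members and the 35 lists were chosen with earlier results of these data known. Named genes were the 12 largest rises and 12 largest falls that passed without overlap of arrays, the 5 smallest p of each list and the first 3 tested genes of each list; any other choice is stated beside the gene. Promoter windows are from RefSeq. Tables used pandas 2.3.3 and numpy 2.4.6 in Python 3.11.15, and figures matplotlib 3.10.9. The alternatives left out arrays, changed the filter, the probe set rule, the normalization, the prior or the treatment term.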

Additional observations from a re-analysis of the deposited data

Results flagged for a closer look

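Of 4450 probe sets that name no single gene, 2 passed between 24 h and 7/8 h in limma, and 396 had an unadjusted p under 0.05. The probe set 1382601_at had a mean of 6.872 at 24 h, against 3.246 at 7/8 h and 2.061 in the sham, a difference of 3.625 (adjusted p = 0.0104). The probe set 1380410_at had 7.112 at 24 h, against 4.823 at 7/8 h and 3.548 in the sham, a difference of 2.289 (adjusted p = 0.0104). Both are outside the comparison of genes and above the sham.

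Of the 242 genes that the naming rule gave, 62 had agents on both sides of 0, and in 6 of these one agent was at least 2-fold higher and another at least 2-fold lower at 24 h. Each agent and time has a single array, so the difference between agents was not tested. Isg15, an interferon-induced ubiquitin-like protein, had 2.37 with TGF-β1 and −3.78 with albumin (24 h minus 7/8 h), a gap of 6.146 between these agents. Irf7, a transcription factor of the interferon response, had 1.25 with TGF-β1 and −1.10 with albumin, a gap of 2.354. Hspa1a, the inducible heat shock protein, had 1.09 with albumin and −3.58 with TGF-β1, a gap of 4.675. Slc6a20a, a transporter of imino acids, had 1.58 with DOC and −1.62 with albumin, a gap of 3.202. Arc, a gene of synaptic activity, had 1.86 with DOC and −1.17 with albumin, a gap of 3.034. Drd1, a dopamine receptor of the striatum, had 1.15 with DOC and −1.28 with TGF-β1, a gap of 2.428.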

How the results depend on the processing

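The 80 calls (50 higher, 30 lower) became 0 with the 6 arrays alone (1672 genes at an unadjusted p under 0.05), 0 with no filter on low values (1764 genes, smallest adjusted p 0.0752), 40 with no treatment term (24 higher, 16 lower) and 129 with a trend and robust prior (81 higher, 48 lower), all in limma. Leaving out an agent or an array gave 0 to 8 calls, 0 to 4 higher and 0 to 4 lower. The other alternatives with 1 value per gene gave 64 to 85 calls. In all alternatives with 1 value per gene, every called gene that was tested kept its direction and an unadjusted p under 0.05. These genes were chosen for a small p on the same arrays, so this too is no independent evidence. The fits with 6 arrays have 2 residual degrees of freedom, and those with no filter adjust over 14217 genes. The causes of the other shifts were not tested. Among genes that did not pass, some changed sign when arrays were left out. Fos lay between −0.55 and 0.40, with 0.34 without the TGF-β1 arrays, 0.29 without DOC at 7 h, 0.08 without TGF-β1 at 8 h and 0.40 without TGF-β1 at 24 h. Il1b lay between −1.83 and 0.18 and Ccl2 between −0.017 and 1.26, with 0.18 and −0.017 without the DOC arrays. Aqp4 lay between −0.25 and 0.035, with 0.035 without the DOC arrays and 0.0020 without DOC at 7 h. P2ry12 lay between −0.66 and 0.15, with 0.065 without the albumin arrays and 0.15 without albumin at 24 h, and Pttg1 between −0.075 and 0.20, with −0.075 without DOC at 7 h. No paired analysis was possible by replicate number, because the set 1 arrays carry none. The arrays of the times are paired by agent instead, which is the treatment term of the fit, and the count of 40 is the fit without that pairing. Of the 35 list medians, 12 changed sign when an agent or an array was left out, all of them within 0.25 of 0. Other filters moved medians too: with no filter the cytokine list had −0.21, complement 0.10, activated microglia 0.26, IL-6 family and STAT3 0.015, meninges −0.065 and matrix 0.0044. With a mean log2 above 5 cytokines had −0.047, immediate early factors −0.33 and interferon response 0.45. Of the called genes, 7 had a 7/8 h mean and 4 a 24 h mean below the filter value of 4, where background limits the signal. For 13 called genes another probe set was tested. All 14 of these other probe sets had the sign of the one used, most with a smaller difference and some, as in Gfra1 and Cd44, with a larger one. Tested on their own in limma, those of Myorg (−0.09, against −1.28) and Sft2d2 (0.39, against 1.72) had an unadjusted p of 0.431 and 0.232. Those of Hspa2, Plin2 and Krcc1 also had an unadjusted p over 0.05.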
